A study of Mus musculus with 30 samples.

Results

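The E2F transcription factors and their DP dimerisation partners were taken as 10 genes, E2f1 to E2f8, Tfdp1 and Tfdp2, out of 21887 protein-coding genes. In each peak list, every peak was taken whose summit, the base of highest pileup, lay inside one of these genes or within 5 kb of it (RefSeq, GRCm38.p6). All 10 symbols were found in the gene table, and the rule used position alone, not the height of a peak. Chromatin immunoprecipitation sequencing had been run on WT-MA9 cells, a cultured mouse acute myeloid leukaemia line that stably carries pMSCV-MLL-AF9-GFP, a retroviral MLL-AF9 fusion construct. The lists cover UTX in MI-503, UTX in DMSO, Menin in MI-503 and Menin in DMSO, with 1 library each, all from cells of that single line grown with IL6, IL3 and SCF and harvested 4 days after treatment. MI-503 is an inhibitor of the Menin-MLL interaction, used at a concentration that the labels do not give, and DMSO is its vehicle. The other 26 libraries that the labels describe were not analysed here. The identity of the cells was not checked, since peak lists hold no expression values.

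E2F proteins bind DNA mostly as dimers with a DP protein, and they control genes of DNA replication and of entry into S phase. Pocket proteins of the retinoblastoma family hold them in check until cyclin-dependent kinases release them. E2F1, E2F2 and E2F3 are the classical activators, E2F4 and E2F5 act chiefly as repressors with pocket proteins, E2F6 represses without them, and E2F7 and E2F8 are atypical members that bind DNA without a DP partner. Menin is a scaffold of the MLL1 and MLL2 complexes. UTX is an H3K27 demethylase found in MLL3 and MLL4 complexes.

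Most E2F and DP genes had a peak of UTX in MI-503 and of Menin in DMSO, the 2 long lists of 14231 and 11195 peaks. The lists of UTX in DMSO and Menin in MI-503 are short, with 217 and 8 peaks. A UTX MI-503 peak was found at 9 of the 10 genes, all but Tfdp1, against 48.3% of all protein-coding genes by the same rule. UTX DMSO peaks were found at E2f3 and E2f8, 2 of 10, against 1.07% of all genes. No member had a Menin MI-503 peak, against 0.0183% of all genes. Menin DMSO peaks were found at 9 of 10, all but E2f6, against 42.9%. Peaks of both long lists, UTX in MI-503 and Menin in DMSO, were found at 8 of 10, against 38.0%. The members span a median of 25746 bp and all protein-coding genes 17169 bp, so that the rule searched more sequence per member. Counted within 1 kb of a start in the promoter table used for the sequences, which lists 8 members, 5 had a UTX MI-503 peak (39.1% of the 17492 genes in it), 2 a UTX DMSO peak (0.863%), none a Menin MI-503 peak, and 6 had a peak of Menin in DMSO (33.5%). With 1 library per condition, none of these differences has a replicate check, and antibody and treatment cannot be told apart between the UTX MI-503 and Menin DMSO lists.

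**Figure D1:**
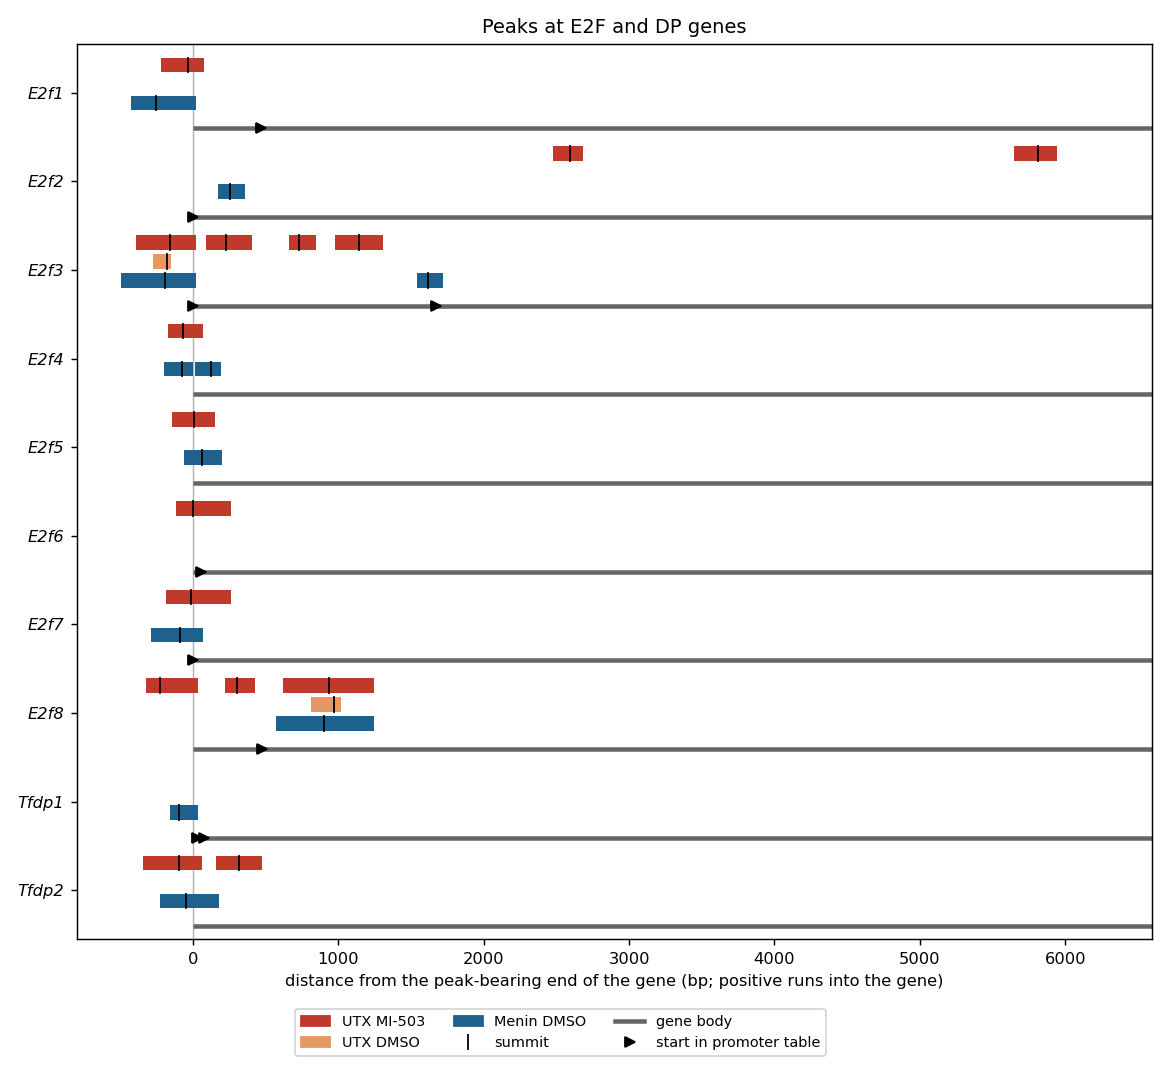
Peaks of UTX in MI-503, UTX in DMSO and Menin in DMSO at the 10 genes, drawn to scale against distance in bp from the end of the gene that carries the peaks; black ticks are summits, grey lines gene bodies cut at the right edge, and triangles transcription starts of the promoter table. Of the summits, 13 of 16 for UTX in MI-503, both for UTX in DMSO and 10 of 11 for Menin in DMSO lie within 1000 bp of that end. Menin in MI-503 has no peak at these genes and no lane.

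Promoters in which a summit fell are printed here, 1 for each such gene. They run from 250 bases before to 50 after a transcription start (RefSeq, GRCm38.p6), 5′ to 3′ on the strand of the gene, and 12 promoters of 8 members were in the table. E2f4 and E2f5 had no entry. The E2f3 promoter (chr13:29986014-29986313, minus strand) belongs to the outer of 2 starts and held a summit of UTX in MI-503, of UTX in DMSO and of Menin in DMSO. The E2f7 promoter (chr10:110745189-110745488, plus strand) held a summit of UTX in MI-503 and of Menin in DMSO. The E2f8 promoter (chr7:48881547-48881846, minus strand) and the E2f6 promoter (chr12:16810715-16811014, plus strand) held a UTX MI-503 summit alone. In E2f8 it was that of a 9.30-fold peak. The highest E2f8 peak of UTX in MI-503, and the E2f8 peaks of UTX in DMSO and Menin in DMSO, lay outside the printed window. The Tfdp1 promoter (chr8:13338501-13338800, plus strand) held a Menin DMSO summit alone. Capitals mark E2F, CCAAT and CHR motifs on either strand.
E2f3: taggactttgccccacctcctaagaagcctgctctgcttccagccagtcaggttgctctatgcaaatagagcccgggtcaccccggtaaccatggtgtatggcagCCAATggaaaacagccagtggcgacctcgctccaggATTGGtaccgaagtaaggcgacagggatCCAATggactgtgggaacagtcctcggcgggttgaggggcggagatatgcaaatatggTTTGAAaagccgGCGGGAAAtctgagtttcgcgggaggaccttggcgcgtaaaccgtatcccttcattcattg
E2f7: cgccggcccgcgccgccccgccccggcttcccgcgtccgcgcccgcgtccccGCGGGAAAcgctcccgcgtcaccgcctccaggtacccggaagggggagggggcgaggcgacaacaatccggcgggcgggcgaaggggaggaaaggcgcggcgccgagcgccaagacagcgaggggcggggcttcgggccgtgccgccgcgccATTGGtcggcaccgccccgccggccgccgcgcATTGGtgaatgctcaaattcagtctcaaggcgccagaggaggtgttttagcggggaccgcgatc
E2f8: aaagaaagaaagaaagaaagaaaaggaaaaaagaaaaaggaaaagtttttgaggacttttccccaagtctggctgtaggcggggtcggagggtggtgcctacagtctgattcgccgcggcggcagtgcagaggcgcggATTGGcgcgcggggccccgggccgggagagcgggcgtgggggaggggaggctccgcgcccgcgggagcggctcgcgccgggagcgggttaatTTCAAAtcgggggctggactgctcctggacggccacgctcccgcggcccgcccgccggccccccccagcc
E2f6: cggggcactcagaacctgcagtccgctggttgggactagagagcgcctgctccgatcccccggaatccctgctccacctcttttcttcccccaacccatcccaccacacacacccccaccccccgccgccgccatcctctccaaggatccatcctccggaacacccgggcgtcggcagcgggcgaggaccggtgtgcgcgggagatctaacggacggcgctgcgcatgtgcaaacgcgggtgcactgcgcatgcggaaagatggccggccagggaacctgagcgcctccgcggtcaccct
Tfdp1: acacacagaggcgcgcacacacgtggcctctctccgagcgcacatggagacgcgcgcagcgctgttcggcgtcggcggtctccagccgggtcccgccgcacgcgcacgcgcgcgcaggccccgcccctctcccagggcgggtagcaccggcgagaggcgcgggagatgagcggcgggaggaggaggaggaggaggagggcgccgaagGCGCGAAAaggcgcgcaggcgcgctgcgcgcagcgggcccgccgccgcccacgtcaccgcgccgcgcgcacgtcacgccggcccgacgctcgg

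The promoters were searched for motifs of cell cycle genes. The search took the 8-letter words TTTCCCGC, TTTCGCGC, TTTGCCGC and TTTGGCGC, which are forms of the E2F site, on both strands. One of them was found in 5 of the 12 member promoters, from 4 of the 8 genes (E2f2, E2f3, E2f7 and Tfdp1), against 2.85% of 21263 promoters of protein-coding genes. The 2 Tfdp1 windows overlap and hold the same word. No peak lay over the windows of E2f1, E2f2 or Tfdp2, so the sequence under the peaks of these genes was not searched. In E2f3 the word began 11 bases before the start of transcription and in E2f7 198 bases before it. CCAAT, the box bound by NF-Y, was found in 5 of the 12 windows, from E2f2, E2f3, E2f7 and E2f8, against 38.2% of all promoters, and the printed E2f3 window and an E2f2 window with no peak over it held 3 copies each. TTTGAA, the core of the CHR element of cell cycle genes, was found in 3 of the 12, against 16%. No E2F word overlapped a CCAAT box or a CHR element in these windows. The member promoters had a median GC content of 67.3% (range 39.3 to 80.7%), against 56.3% for all promoters. A match describes the letters alone.

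E2f8 carried the highest peaks of the family in both long lists. UTX in MI-503 reached 26.3-fold over the local background at chr7:48880828-48881451, with a −log10 q of 60.5 and rank 370 of 14231 peaks by q. The summit of that peak lay under 47 fragments (exact Poisson 95% interval 34.5 to 62.5, which covers counting error only). UTX in DMSO had a peak inside the same stretch, chr7:48881053-48881259, at 7.86-fold and rank 109 of 217. In DMSO the summit lay under 15 fragments (8.40 to 24.7). These counts are not scaled for library size. As inferred from the scaling of the pileups, the UTX DMSO library was 1.14 times its input. The UTX MI-503 library was no deeper than its input. On a shared vehicle input, of which the labels list a single one for UTX in WT-MA9, the UTX DMSO library would be the deeper of the 2. Their depths were not compared directly. The difference in fragments between UTX in MI-503 and in DMSO was not tested, with 1 library each. Pileups also grow with the length to which reads are extended. The narrowest peak was 179 bp for UTX in MI-503 and 127 bp for UTX in DMSO. Menin in MI-503 had no peak there. Menin in DMSO reached 21.9-fold at chr7:48880827-48881500, with 84 fragments (67.0 to 104) and rank 363 of 11195. The 3 summits lay within 64 bp of one another, between 426 and 490 bp downstream of the annotated start. UTX in MI-503 had 2 weaker peaks on the upstream side, of 9.30-fold and 5.47-fold, that no peak of another list overlapped.

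E2f7, the other atypical member, had its peaks directly on the start. In MI-503 the UTX summit lay 11 bp upstream of it, at chr10:110745251-110745697, with 9.30-fold enrichment, 16 fragments (9.15 to 26.0) and rank 4958 of 14231. The Menin DMSO summit lay 88 bp upstream, at chr10:110745149-110745508, with 11.2-fold enrichment, 46 fragments (33.7 to 61.4) and rank 1999 of 11195. E2f7 thus stood at 34.8% of the UTX MI-503 list and at 17.9% of the Menin DMSO list, counted from the top. It had no peak in UTX DMSO or Menin MI-503.

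Among the activators, E2f1 stood at nearly the same place in both long lists. UTX in MI-503 reached 17.0-fold at chr2:154569815-154570109, with 30 fragments (20.2 to 42.8) and rank 1592 of 14231, or 11.2% from the top. Menin in DMSO reached 14.7-fold at chr2:154569874-154570315, with 54 fragments (40.6 to 70.5) and rank 1220 of 11195, or 10.9% from the top. The summits were 217 bp apart, with the Menin summit farther from the gene, at 254 bp from its annotated end and 720 bp upstream of the start in the promoter table. UTX DMSO and Menin MI-503 had no peak at E2f1.

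E2f3, whose a and b forms are known to arise from separate promoters, had the most peaks of the family. UTX in MI-503 had 4, spread over the stretch between the 2 annotated starts and just upstream. The highest, 13.1-fold at chr13:29986047-29986456 with 23 fragments (14.6 to 34.5) and rank 2812, sat 161 bp upstream of the outer start. The other 3 reached 6.57-fold to 8.21-fold, with 11 to 16 fragments, and no Menin peak overlapped them. UTX in DMSO had a peak at the same outer start, chr13:29986215-29986341, at 6.18-fold with 13 fragments (6.92 to 22.2) and rank 208 of 217. The difference between UTX in MI-503 and in DMSO at E2f3 was not tested, with 1 library each and counts that are not scaled for library size. Menin in DMSO reached 11.5-fold at chr13:29986041-29986561, with 48 fragments (35.4 to 63.6) and rank 1843. A further Menin DMSO peak, 4.45-fold with 16 fragments (9.15 to 26.0), lay 53 bp upstream of the inner start, and no UTX peak overlapped it. The nearest UTX summit, that of the 8.21-fold MI-503 peak, lay 532 bp upstream of the same start.

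E2f2 was the activator with the weakest coverage, and its UTX and Menin peaks did not overlap. UTX in MI-503 had peaks 2593 and 5810 bp inside the gene, at 6.90-fold and 8.21-fold with 12 and 14 fragments. Menin in DMSO had a peak 258 bp downstream of the start, at 3.97-fold with 16 fragments (9.15 to 26.0) and rank 10417 of 11195, near the foot of its list. No peak of any list overlapped the 300 bases of either E2f2 promoter.

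**Figure D2:**
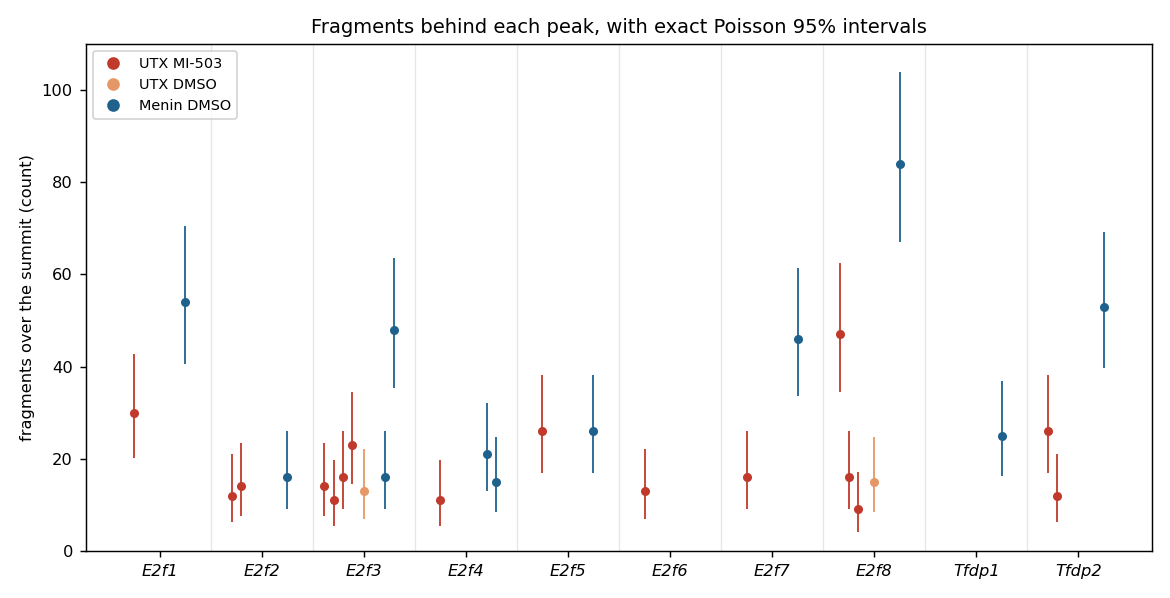
Number of fragments over the summit of every peak at the 10 genes, for UTX in MI-503, UTX in DMSO and Menin in DMSO; bars are exact Poisson 95% intervals and cover counting error only. E2f8 has the most in each list, at 47, 15 and 84, and the other UTX MI-503 peaks have 9 to 30. Counts are not scaled for library size, so heights compare within a list.

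The repressor genes E2f4 and E2f5 had peaks at the lower-coordinate end of the gene, the end that carries the peaks in both long lists. At E2f4, UTX in MI-503 reached 6.37-fold with 11 fragments (5.49 to 19.7) at chr8:105297489-105297734. Menin in DMSO had 2 adjoining peaks there, of 5.05-fold and 3.75-fold with 21 and 15 fragments, and the UTX peak overlapped both. The next gene, Exoc3l, lies 622 bp from the nearer Menin summit and 627 bp from the UTX summit. E2f4 stood at 66.1% of the UTX MI-503 list and 67.2% of the Menin DMSO list. At E2f5, UTX in MI-503 reached 11.0-fold with 26 fragments (17.0 to 38.1) at chr3:14578461-14578753, and Menin in DMSO 7.02-fold with 26 fragments (17.0 to 38.1) at chr3:14578537-14578799. Beyond the other end of E2f5, just outside the 5 kb reach, lay peaks nearest to Rbis, of 15.9-fold for UTX in MI-503 at 5055 bp and 29.3-fold for Menin in DMSO at 5064 bp.

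E2f6, the repressor that works with Polycomb proteins, was the member with UTX alone. UTX in MI-503 reached 7.18-fold at chr12:16810792-16811170, with 13 fragments (6.92 to 22.2) and a summit 59 bp upstream of the start. Menin in DMSO had no peak nearer than 67854 bp. UTX MI-503 without Menin DMSO was found at 10.3% of all protein-coding genes.

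The DP genes differed from each other in the lists. Tfdp1, which encodes the main partner DP1, had Menin alone, as did 4.84% of all genes. The Menin DMSO peak reached 5.12-fold at chr8:13338565-13338759, with 25 fragments (16.2 to 36.9) and a summit 124 bp upstream of a start. It sat on the richest input of the member Menin peaks, 1.74 times the lowest background of the list. UTX in MI-503 had no peak nearer than 51014 bp. Tfdp2, which encodes DP2, had both. UTX in MI-503 reached 13.3-fold with 26 fragments (17.0 to 38.1) at chr9:96195904-96196306, and 6.45-fold with 12 fragments at a neighbouring peak. Menin in DMSO reached 11.6-fold with 53 fragments (39.7 to 69.3) at chr9:96196017-96196421. These lay at the upstream end of the Tfdp2 gene model, at least 62140 bp from the starts of the promoter table, and no peak lay over those promoters.

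Across the family, part of the UTX MI-503 peaks and most of the Menin DMSO peaks overlapped each other. Of the 16 member UTX MI-503 peaks, 8 were overlapped by a Menin DMSO peak (50.0%), against 53.4% of all UTX MI-503 peaks. Of the 11 member Menin DMSO peaks, 8 shared bases with UTX in MI-503 (72.7%), against 66.4% of all Menin DMSO peaks. Both shares of peaks are near those of the whole lists. The summits of the 9 overlapping pairs, at 7 of the 10 genes, were 5 to 364 bp apart, with a median of 53 bp. The share of all genes with such a pair was not counted. The UTX DMSO peaks of E2f3 and E2f8 were each overlapped by peaks of both long lists.

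Several members stood high in the lists. The highest peak lay in the top 25% of the UTX MI-503 list for 5 members (E2f1, E2f3, E2f5, E2f8 and Tfdp2), a place reached by 20.3% of all protein-coding genes. It lay in the top 25% of the Menin DMSO list for 5 (E2f1, E2f3, E2f7, E2f8 and Tfdp2), a place reached by 15.3%. Over the members with a peak, the median of the highest fold was 11.0 for UTX in MI-503, against 9.85 over all genes with one. For Menin in DMSO it was 11.2, against 7.14. At least 2 peaks were found at 4 members for UTX in MI-503 (E2f2, E2f3, E2f8 and Tfdp2), against 18.6% of all genes, and at 2 for Menin in DMSO (E2f3 and E2f4), against 11.6%. Neighbouring ranks were often tied in the UTX MI-503 list, where up to 653 peaks shared the exact fold and q of a member peak. The recovered background under the member peaks was at most 1.78 times the lowest of its list.

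**Figure D3:**
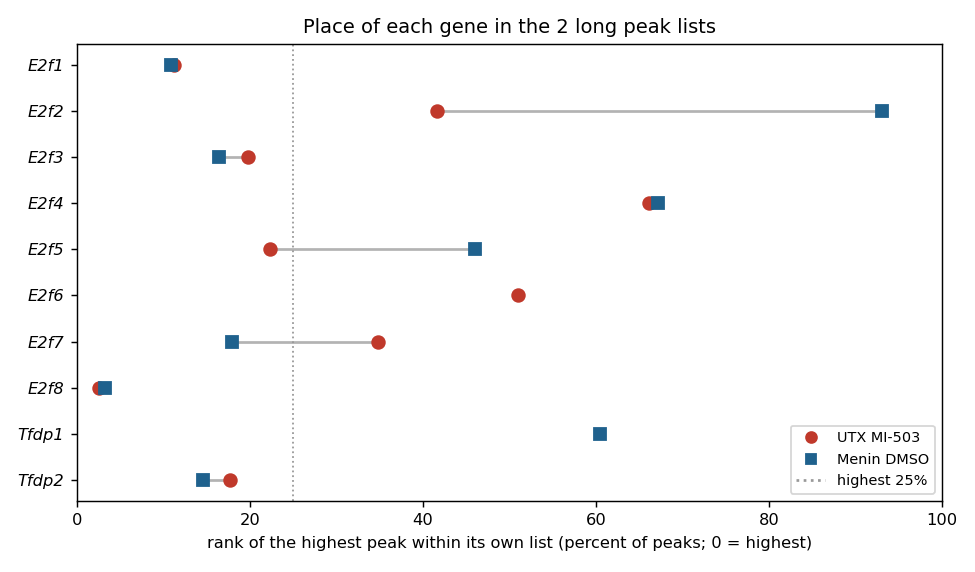
Rank of each gene's highest peak within the UTX MI-503 list and the Menin DMSO list, as a percent of the peaks of that list from the highest, with the dotted line at 25%. E2f8 stands at 2.60% and 3.24%, E2f1 at 11.2% and 10.9%, and E2f2 at 41.7% and 93.1%. E2f6 has no Menin DMSO peak and Tfdp1 no UTX MI-503 peak.

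Genes of the wider E2F pathway were mostly covered in both long lists. Of 55 further genes in 5 lists, 53 had a UTX MI-503 peak (48.3% of all protein-coding genes), 1 a UTX DMSO peak (1.07%), none a Menin MI-503 peak (0.0183%), and 44 had a peak of Menin in DMSO (42.9%). These genes were listed with earlier results of the data known. The share for UTX in DMSO is near that of all genes. The UTX DMSO peak, named after its value was seen, was at Cdc25a, the phosphatase that activates CDK2, at 10.1-fold, and Cdc25a had 29.6-fold for UTX in MI-503 and 14.5-fold for Menin in DMSO.

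A set of 9 genes held those of pocket proteins, of the MuvB core with which they form the DREAM repressor and of its partner B-Myb. Of these, 9 were covered by UTX in MI-503 (48.3% of all protein-coding genes) and 8 by Menin in DMSO (42.9%). The median highest fold was 6.95 for UTX in MI-503 and 5.24 for Menin in DMSO, below the 9.85 and 7.14 of all genes with a peak. Rb1, the retinoblastoma gene, had 6.24-fold for UTX in MI-503 and 5.38-fold for Menin in DMSO. Rbl2, which encodes p130, had 5.66-fold for UTX in MI-503 and 4.82-fold for Menin in DMSO. The MuvB subunit gene Lin9 had 6.95-fold for UTX in MI-503 and 4.25-fold for Menin in DMSO, and Lin37 14.6-fold for UTX in MI-503 and 7.81-fold for Menin in DMSO. Rbl1, which encodes p107, had UTX alone at 10.8-fold.

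Of 10 genes of G1 and S phase cyclins, their kinases and Cdc25a, 10 carried UTX in MI-503 and 6 Menin in DMSO. The shares of all protein-coding genes are 48.3% and 42.9%. Over those with a peak, the median highest fold was 12.4 for UTX in MI-503 and 12.7 for Menin in DMSO. Both are above the 9.85 and 7.14 of all genes with a peak. Ccnd3 (cyclin D3) had 17.2-fold for UTX in MI-503 and 9.31-fold for Menin in DMSO, and Cdk2 24.1-fold for UTX in MI-503 and 10.9-fold for Menin in DMSO. Ccna2 (cyclin A2) had 17.0-fold for UTX in MI-503 and 8.45-fold for Menin in DMSO. Ccne1 (cyclin E1) had 9.85-fold for UTX in MI-503 and 17.7-fold for Menin in DMSO. The D-type cyclin genes Ccnd1 (6.02-fold) and Ccnd2 (5.47-fold), the cyclin E2 gene Ccne2 (6.67-fold) and Cdk6 (7.11-fold) had UTX in MI-503 alone.

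Of 20 classical E2F target genes, which serve DNA replication and nucleotide supply, 19 carried UTX in MI-503 and 17 Menin in DMSO. Among all protein-coding genes, 48.3% and 42.9% did. Over those of the 20 genes with a peak, the median highest fold was 12.9 for UTX in MI-503 and 9.0 for Menin in DMSO. Those medians are above the 9.85 and 7.14 of all genes with a peak. The replicative helicase genes Mcm2, Mcm3, Mcm4 and Mcm5 had 17.0-fold, 12.9-fold, 20.3-fold and 21.9-fold for UTX in MI-503. In Menin DMSO the same genes had 17.6-fold, 7.98-fold, 9.06-fold and 9.0-fold. Mcm6 (9.29-fold) and the DNA polymerase alpha gene Pola1 (7.66-fold) had UTX in MI-503 alone. Tyms, the thymidylate synthase gene, had no peak in any list.

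Of 12 genes of the PRC1.6 complex, in which E2F6 acts, 11 carried UTX in MI-503 (48.3% of all genes) and 9 Menin in DMSO (42.9%). The median highest fold was 8.76 for UTX in MI-503 and 6.34 for Menin in DMSO, below the 9.85 and 7.14 of all genes with a peak. L3mbtl2, Mga, Max and Rnf2 had both. They reached 11.0-fold, 21.5-fold, 6.46-fold and 6.57-fold for UTX in MI-503. For Menin in DMSO the same genes had 5.37-fold, 8.08-fold, 4.92-fold and 13.6-fold. Pcgf6, Rybp and Hdac2 had UTX in MI-503 alone, and Yaf2 Menin in DMSO alone, at 5.59-fold. The 4 ubiquitin ligase genes that act on E2F proteins, Skp2, Ccnf, Fzr1 and Cdc20, all had a peak in both long lists, against 38.0% of all genes. Their median highest fold was 14.4 for UTX in MI-503 and 10.8 for Menin in DMSO, above those of all genes with a peak. Fzr1, a coactivator of the anaphase-promoting complex, had 17.0-fold for UTX in MI-503 and 34.0-fold for Menin in DMSO.

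**Figure D4:**
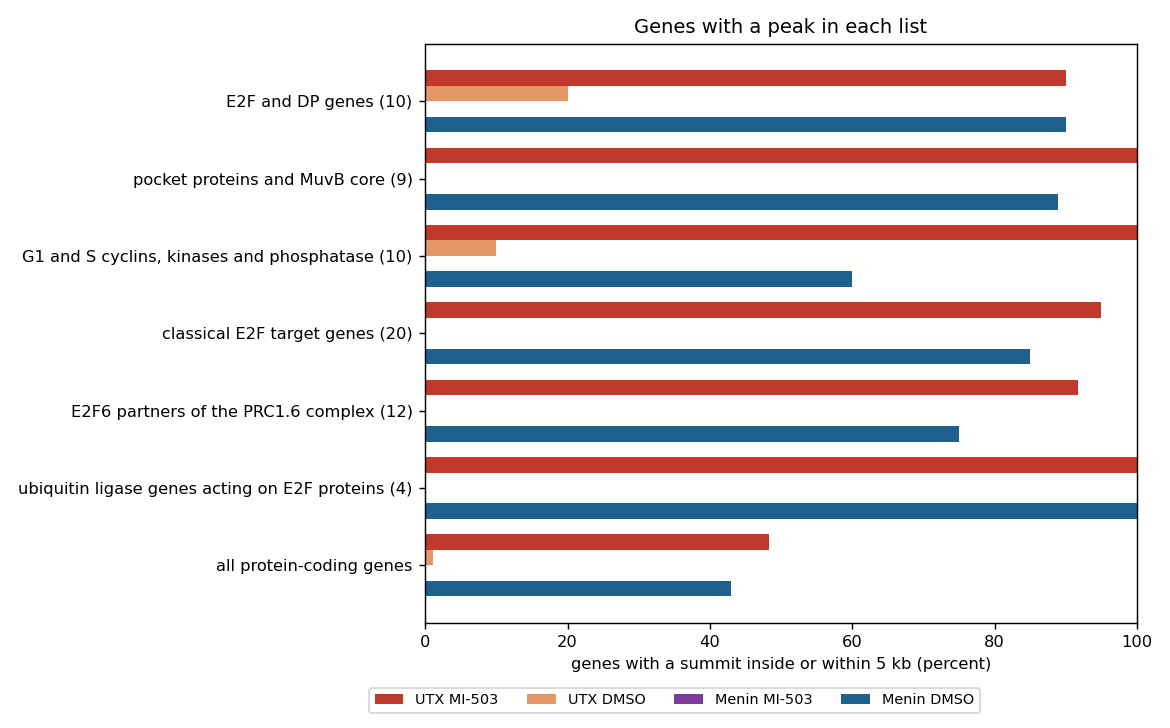
Share of genes with a summit inside the gene or within 5 kb, in percent, for UTX in MI-503, UTX in DMSO, Menin in MI-503 and Menin in DMSO; the number of genes is in brackets. UTX MI-503 peaks are at 9 of 10 E2F and DP genes and 48.3% of all protein-coding genes, and Menin DMSO peaks at 9 of 10 and 42.9%. The Menin MI-503 bars are at 0 for every list and too short to see for all genes.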

How the data were processed

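Peak lists of 4 libraries were used, each called by the authors on a single library. MACS2 and the genome builds hg38 and mm10 are named in the processing notes, per the labels. Peak positions were read here as mouse GRCm38. The sources used here do not state aligner, filters or threshold. Names of the deposited peaks pair each library with a vehicle input. The deposited fold is a ratio of summit pileup to local background, with the same constant added to both. It is therefore lower than the plain ratio, most of all where the background is low. The deposited −log10 p-values and q-values belong to the summit, and the deposited score is 10 times −log10 q without its decimals. Folds are the authors' and were compared within a list. Ranks are by q, ties sharing the best.

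Fragments and background at each summit were solved from fold and p-value (Python 3.11.15, SciPy 1.17.1). All pileups of the peaks tried were whole multiples of a step, within 0.01 of it. Since MACS2 by default scales the larger of library and input down, a step of 1 (UTX MI-503, Menin DMSO) was read as a library no deeper than its input, and steps of 0.8743 (UTX DMSO) and 0.7419 (Menin MI-503) as libraries 1.14 and 1.35 times their input. The labels list a single WT-MA9 input for each of the UTX and Menin antibodies, from DMSO. On a shared input, UTX DMSO would be the deeper UTX library and Menin MI-503 the deeper Menin library. Absolute depth is unknown. The code was tested on simulated data. Overlap meant 1 shared bp. Members, lists and tests were chosen with earlier results of these data known. Members and their nearest neighbours were named, with up to 4 genes per list and class. No test between conditions was possible with 1 library each.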

Additional observations from a re-analysis of the deposited data

How the results depend on the processing

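The counts of members with a peak were 9, 2, 0 and 9 for UTX in MI-503, UTX in DMSO, Menin in MI-503 and Menin in DMSO, and they were the same with a 1 kb or 10 kb reach and where the member had to be the nearest gene. Counting summits strictly inside the gene left 5 for UTX in MI-503, 1 for UTX in DMSO and 5 for Menin in DMSO, with 4 genes in both long lists: the summits of E2f1 and E2f7, for example, lie just outside the gene model in both long lists. Counting summits within 1 kb of a start in the promoter table left 5 for UTX in MI-503 (39.1% of the genes in that table). E2f2, E2f4, E2f5, Tfdp1 and Tfdp2 were without. Of these, E2f4 and E2f5 have no entry. The starts listed for Tfdp2 lie at least 62140 bp from its peaks, the highest UTX one of which is 98 bp from the outer end of the gene. With a −log10 q of at least 5, UTX in DMSO kept 1 member, E2f8, and Menin in DMSO 8, without E2f2. Shares of all genes were counted for the 5 kb rule and the 1 kb promoter rule alone. The other counts, such as those inside the gene, therefore have no share to be read against. The other alternatives changed a count of members or of overlaps by no more than 1.5 times. Ranking by fold, and the changes of window and q for the pathway lists, were chosen after seeing the data. No paired analysis was possible because each condition has 1 library. There was no replicate to leave out. Low pileups limit the weaker peaks, of which several rest on 9 to 16 fragments.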

Other observations

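Promoter windows of all protein-coding genes were also compared by the peaks over them, as a description added after seeing the data. An E2F word was found in 5.64% of 5530 windows with peaks of both UTX in MI-503 and Menin in DMSO over them, in 3.72% of 1480 with UTX in MI-503 alone, in 3.45% of 638 with Menin in DMSO alone and in 1.6% of 13615 with neither. The CCAAT box was found in 46.3%, 33.4%, 31.5% and 35.7% of the same classes. The CHR word TTTGAA was found in 9.89%, 11.0%, 10.8% and 19.3% of them, most often in windows with neither peak. GC content moved with the classes, with medians of 63.0%, 61.0%, 61.7% and 51.7%, and its part in these shares was not tested.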
